A study of Mus musculus with 18 samples.

Results

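The genes described here are 36 members of glucose breakdown and of its oxygen-sensing control, chosen by symbol from a fixed list that covers glucose uptake, the enzymes from glucose to lactate, the switches at pyruvate, and targets and regulators of HIF-1. All 36 were found among the 16614 genes of the table, and all 36 were among the 11989 genes that passed the filter on low counts. RNA was measured in mouse dendritic cells (BMDC) that had grown from bone marrow in 20 ng/ml GM-CSF with 100 ng/ml Flt3L over 7 to 10 days. The cells were taken as type 1 dendritic cells (DC1), by sorting on CD11c and XCR1 or with beads and an XCR1 antibody, and which of these each sample had is not stated. Of the 18 samples, 5 were KO with LPS, 5 WT with LPS, 4 KO control and 4 WT control. LPS is a cell wall component of bacteria that immune cells sense through a Toll-like receptor. The series title concerns the balance of STAT5 and STAT3, but the labels used here do not name the deleted gene, the dose or time of LPS, the strain or the age of the mice. Whether replicates came from different mice or cultures is not said either, and p-values therefore measure only the spread among the deposited samples, which may be technical.

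Library totals lay between 25590104 and 27375189 estimated counts. The 9 markers of type 1 conventional dendritic cells were all read in every group, with a summed TPM (a level per transcript length with a fixed sum per library) of 1470 to 1880 in KO LPS, 1730 to 2380 in WT LPS, 3560 to 4050 in KO control and 3910 to 4230 in WT control. Among them, Xcr1 alone had a higher mean TPM with LPS than in control (80.7 against 49.1 in KO, 128 against 86.3 in WT). The means of the others were lower, as for Irf8, the most abundant (734 against 1470 in KO, 669 against 1480 in WT). Monocyte and macrophage markers, of which Lyz2 was the most abundant, summed to 1430 to 2320 TPM in KO LPS, 1900 to 2040 in WT LPS, 3400 to 3780 in KO control and 3690 to 3790 in WT control. Neutrophil markers reached 490 TPM in WT LPS replicate 5 and 227 TPM in WT control replicate 4, and lay between 0.72 and 13.9 TPM in all other libraries. Plasmacytoid markers, mostly Bst2, summed to 869 to 999 TPM in KO LPS and 791 to 1080 TPM in WT LPS, against 160 to 188 TPM in KO control and 146 to 159 TPM in WT control. The rest of this list did not move together. Mean TPM with LPS against control was higher for Tcf4 (26.9 against 7.48 in KO, 24 against 8.15 in WT). It was lower for Siglech (0.74 against 3.73, 0.848 against 4.57) and Ccr9 (1.69 against 4.78, 2.25 against 6.7). Ly6d reached at most 0.44 TPM. Type 2 dendritic cell markers summed to 48.5 to 66.6 TPM in KO LPS, 63.7 to 84.7 in WT LPS, 116 to 123 in KO control and 126 to 151 in WT control. Of these, Irf4 had a higher mean with LPS (12.7 against 7.67 TPM in KO, 12 against 7.75 TPM in WT), and the others had lower means. Lymphocyte markers summed to at most 4.22 TPM, mast cell and basophil markers to at most 0.22 TPM and red cell and platelet markers to at most 70 TPM. WT LPS replicate 2 stood apart from its group: over all tested genes its median absolute deviation from the group mean was 0.211 on the log2 scale, against 0.048 to 0.121 in the other libraries. The library names carry numbers that fall into runs of 4, each with both genotypes, though from the run numbered 5 to 8 the table holds only WT LPS replicate 2 and KO LPS replicate 2. The labels do not call these batches, and the grouping into runs was made after seeing the data. The part of these marker levels in the results below was not tested, and in bulk RNA fewer cells of a type and less RNA per cell cannot be told apart. Results that rest on WT LPS replicate 2 are given with and without it.

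As background, glycolysis takes up glucose through membrane carriers, splits it by way of hexokinase, phosphofructokinase and aldolase, and yields ATP and pyruvate. Pyruvate is turned into lactate and exported, or enters mitochondria unless pyruvate dehydrogenase kinases shut the entry. HIF-1 is a transcription factor whose alpha subunit is marked for destruction by oxygen-using prolyl hydroxylases, and it binds hypoxia response elements with an ACGTG or GCGTG core in front of many of these genes. Dendritic cells and macrophages are known to raise glycolysis after LPS, and Hif1a transcription is known to respond to NF-kB.

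To show what lies in front of members that recur below, 5 windows of 250 bases before the annotated start are printed 5′ to 3′ on the strand of the gene, from RefSeq on build GRCm38.p6 (the deposited values were made on GRCm39). Capitals mark each ACGTG or GCGTG, the letters of the HIF core, on either strand, so that CACGT and CACGC are also in capitals. CACGTG, which holds the motif on both strands, counts as 2 matches. Slc2a1 (chr4:119108495-119108744, plus strand) held 2 matches, Ldha (chr7:46845554-46845803, plus strand) 5 and Pfkp (chr13:6648772-6649021, minus strand) 3. These genes stand for members that were higher with LPS under the main scaling.
Slc2a1: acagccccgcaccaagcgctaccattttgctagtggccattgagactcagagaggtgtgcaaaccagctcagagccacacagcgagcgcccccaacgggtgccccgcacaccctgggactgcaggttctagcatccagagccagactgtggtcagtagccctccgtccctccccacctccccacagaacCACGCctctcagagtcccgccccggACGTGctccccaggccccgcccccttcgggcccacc
Ldha: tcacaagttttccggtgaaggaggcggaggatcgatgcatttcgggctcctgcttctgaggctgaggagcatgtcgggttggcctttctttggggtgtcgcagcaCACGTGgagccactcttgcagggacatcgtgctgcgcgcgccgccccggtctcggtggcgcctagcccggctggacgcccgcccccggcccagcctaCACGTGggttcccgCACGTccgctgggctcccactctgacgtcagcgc
Pfkp: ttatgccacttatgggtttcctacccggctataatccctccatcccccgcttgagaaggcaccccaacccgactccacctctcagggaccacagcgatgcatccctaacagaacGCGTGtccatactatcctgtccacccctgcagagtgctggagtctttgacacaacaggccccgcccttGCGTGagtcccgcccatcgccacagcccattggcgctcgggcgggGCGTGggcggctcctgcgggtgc
Egln3 (chr12:54203875-54204124, minus strand) held 1 match and Ankrd37 (chr8:45999851-46000100, minus strand) 4, and both were lower with LPS.
Egln3: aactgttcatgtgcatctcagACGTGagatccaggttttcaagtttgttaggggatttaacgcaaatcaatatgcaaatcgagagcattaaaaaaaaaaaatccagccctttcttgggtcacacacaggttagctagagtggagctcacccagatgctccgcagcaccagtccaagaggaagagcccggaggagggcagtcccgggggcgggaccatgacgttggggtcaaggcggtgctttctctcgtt
Ankrd37: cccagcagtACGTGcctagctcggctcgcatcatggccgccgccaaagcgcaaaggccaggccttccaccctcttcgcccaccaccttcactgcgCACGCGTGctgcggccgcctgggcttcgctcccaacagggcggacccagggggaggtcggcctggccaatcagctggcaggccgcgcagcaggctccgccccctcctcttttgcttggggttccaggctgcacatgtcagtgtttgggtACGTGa
Over windows of 300 bases, 250 before and 50 after a start, 39 of the 49 member windows (79.6%) held a match, against 43.8% of all 32851 windows in the table. Member windows were also richer in G and C, with a median of 62.3% against 52.7% over all windows. A window was at hand for 33 of the 36 members, and 30 of these had a match in at least 1 window, against 46.7% of all genes with a window. Slc2a3, Bnip3l and Ndrg1 had no entry. The matches were found among members that were higher with LPS and among members that were lower, and a match describes the letters, not binding.

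LPS moved most of these genes in both genotypes, and in opposite directions within the pathway. In KO, 19 members were higher and 12 lower with LPS than in control, where 40% of all tested genes were higher and 46.2% lower, and the median member log2 fold change was 0.34 against -0.10 over all tested genes. In WT, 20 members were higher and 12 lower, where 40.7% of all tested genes were higher and 44.7% lower, and the medians were 0.59 for members and -0.06 for all tested genes. A call is an edgeR Benjamini-Hochberg adjusted p under 0.05 over all tested genes, so with 86.2% of genes called in KO and 85.5% in WT, the number of members called is near the background. These counts used TMM scaling, which places the typical gene near no change. With libraries scaled to their total counts, the median of all genes moved by -0.78 in KO and -0.74 in WT, and 8 members were then higher and 21 lower in KO, and 9 higher and 17 lower in WT. The share of all called genes that were higher went with it, at 46.4% under TMM and 22.3% under total-count scaling in KO, and at 47.7% and 22.1% in WT. A direction below is therefore relative to the typical gene, and members whose direction turns under total-count scaling are named as such.

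**Figure D1:**
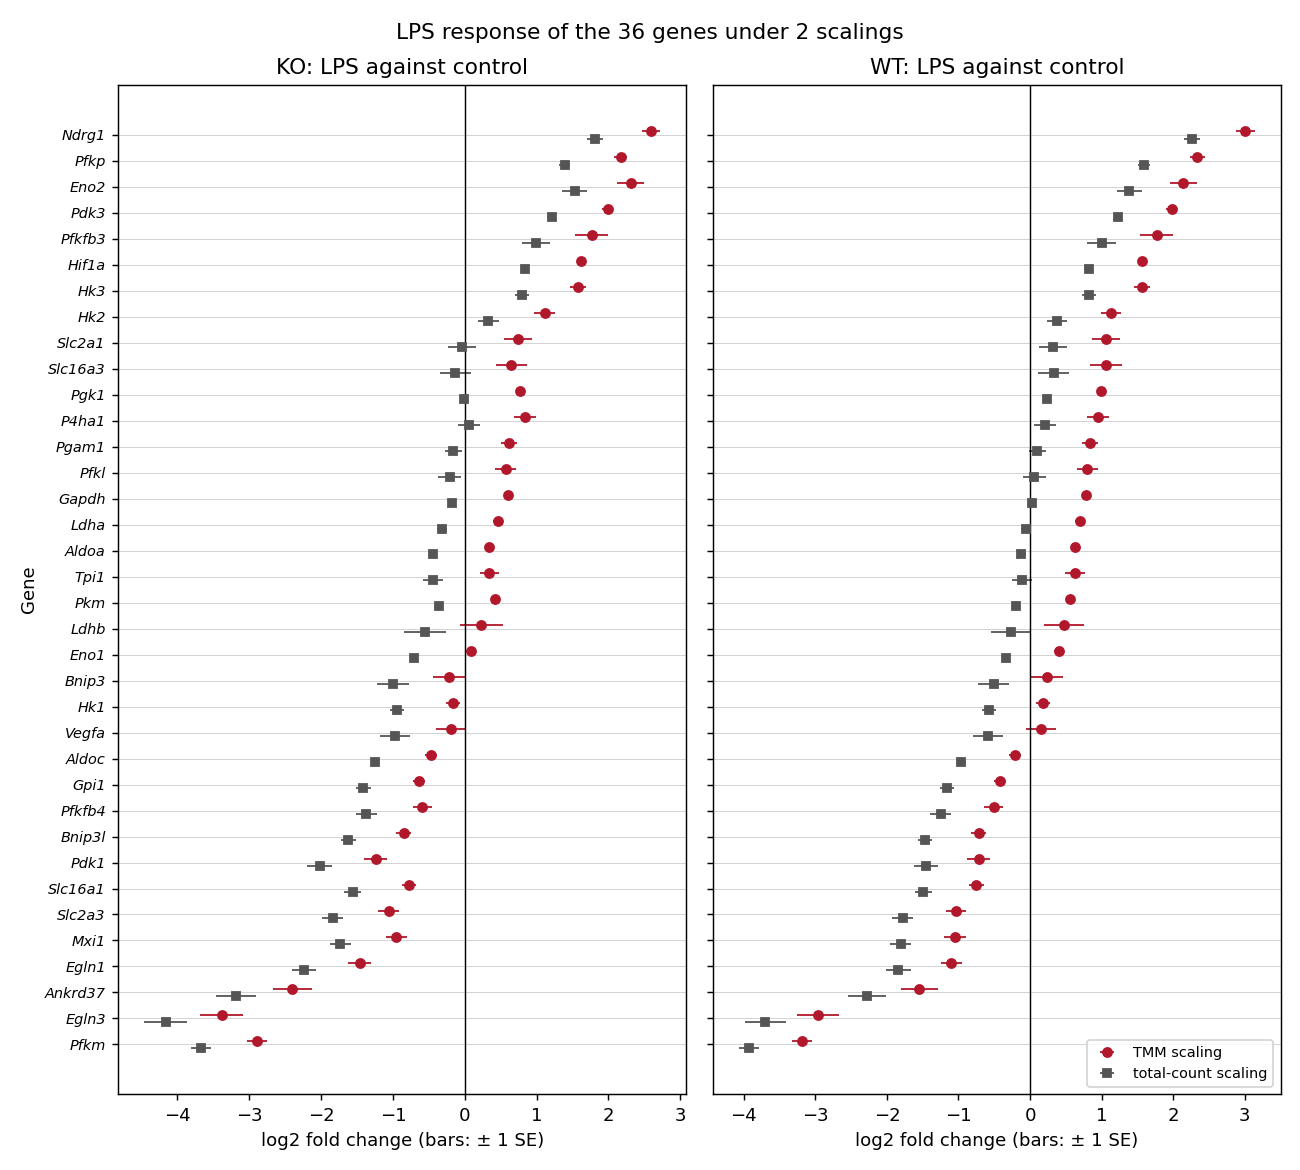
Log2 fold change of each member, LPS against control, in KO (left) and WT (right), with red circles for TMM scaling, grey squares for total-count scaling and bars of 1 SE. Ndrg1 and Pfkp lie at the high end and Pfkm and Egln3 at the low end in both genotypes, and the grey squares lie below the red circles.

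Under both scalings, 8 members were called higher with LPS in KO, namely Hk2, Hk3, Pfkp, Pfkfb3, Eno2, Pdk3, Hif1a and Ndrg1. In WT the same 8 and Pgk1 were called higher under both. The 12 members called lower under both scalings were the same in KO and WT, namely Slc2a3, Gpi1, Pfkm, Pfkfb4, Aldoc, Slc16a1, Pdk1, Bnip3l, Egln1, Egln3, Ankrd37 and Mxi1. Of the members called higher in WT, Slc2a1, Pfkl, Gapdh, Pgam1, Slc16a3 and P4ha1 stayed above 0 but lost their call under total-count scaling, with log2 fold changes of 0.32, 0.06, 0.03, 0.10, 0.33 and 0.21 and edgeR adjusted p between 0.14 and 0.71. Other members went from called higher under TMM to called lower under total-count scaling. These were 5 in KO (Aldoa, Tpi1, Gapdh, Pkm and Ldha) and 2 in WT (Eno1 and Pkm). The KO and WT comparisons use separate libraries.

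Uptake and trapping of glucose split by isoform. Slc2a1, the carrier GLUT1, had 165 ± 33.2 CPM in KO LPS, against 99 ± 27.8 CPM in KO control (SD, n = 5 and 4), where CPM is the count scaled by TMM to a common library size. In WT it had 191 ± 29 CPM with LPS, against 91.5 ± 27 CPM in control. It was called higher in both genotypes (0.74 ± 0.2 SE in KO, 1.06 ± 0.2 in WT), but total-count scaling turned the KO value to -0.04. Slc2a3, the high-affinity carrier GLUT3, was lower, at 11.4 to 20.1 CPM in KO LPS against 25 to 38.2 CPM in KO control, and at 14.8 to 18.7 CPM in WT LPS against 27.4 to 42.1 CPM in WT control. Its log2 fold changes were -1.06 ± 0.15 SE in KO and -1.04 ± 0.14 SE in WT. Of the 3 hexokinases, which add a phosphate to glucose and so hold it in the cell, Hk2 and Hk3 were higher with LPS. Hk2 rose by 1.11 ± 0.14 SE in KO and 1.13 ± 0.14 in WT, and Hk3 by 1.58 ± 0.11 and 1.57 ± 0.11. Hk1 was not called in either genotype (-0.16 ± 0.1 SE, adjusted p = 0.14 in KO and 0.18 ± 0.1 SE, adjusted p = 0.1 in WT, edgeR), and under total-count scaling it was called lower in both, at -0.94 in KO and -0.57 in WT (edgeR adjusted p = 1.6e-08 and 1.9e-05). In WT it was called higher with RLE scaling (0.24, edgeR adjusted p = 0.041), with DESeq2 (0.24, adjusted p = 0.038), without WT LPS replicate 1 (0.25, edgeR adjusted p = 0.021) and without WT control replicate 2 (0.24, edgeR adjusted p = 0.044). Gpi1, which turns glucose phosphate into fructose phosphate, was lower in both genotypes (-0.64 ± 0.08 SE in KO, -0.42 ± 0.08 in WT).

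Pfkp (gene ID 56421) had 1130, 1220, 1190, 1140 and 1150 CPM in the KO LPS libraries, against 241, 290, 269 and 237 CPM in the KO control libraries. WT libraries held 1050, 1410, 1140, 1120 and 1230 CPM of Pfkp with LPS, against 197, 274, 234 and 238 CPM in control. Every LPS library lay above every control library, and Pfkp, the platelet-type subunit of phosphofructokinase, the committing enzyme of the pathway, was called higher in KO (2.17 ± 0.09 SE, adjusted p = 2.5e-14) and WT (2.34 ± 0.1 SE, adjusted p = 9.8e-15, edgeR).

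Pfkm (gene ID 18642) had 0.922, 1.29, 1.14, 1.05 and 1.15 CPM in the KO LPS libraries, against 8.45, 7.92, 8 and 8.68 CPM in the KO control libraries. WT libraries held 1.43, 0.766, 0.636, 0.945 and 1.28 CPM of Pfkm with LPS, against 8.69, 9.62, 9.19 and 9.81 CPM in control. Pfkm, the muscle-type subunit, went the opposite way, with every LPS library below every control library (-2.89 ± 0.14 SE, adjusted p = 1e-13 in KO, -3.19 ± 0.14 SE, adjusted p = 2.2e-14 in WT, edgeR). At these levels Pfkm was near 1 CPM in the LPS libraries. The liver-type subunit Pfkl was called higher in KO (0.57 ± 0.15 SE, adjusted p = 0.002, edgeR) and WT (0.8 ± 0.15 SE, adjusted p = 8e-05, edgeR), and total-count scaling turned its KO value to -0.21.

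Pfkfb3 (gene ID 170768) had 670, 552, 376, 536 and 544 CPM in the KO LPS libraries, against 163, 159, 159 and 145 CPM in the KO control libraries. WT libraries held 440, 909, 295, 370 and 581 CPM of Pfkfb3 with LPS, against 150, 143, 148 and 166 CPM in control. Pfkfb3 makes the sugar bisphosphate that activates phosphofructokinase, and every LPS library lay above every control library (1.77 ± 0.23 SE, adjusted p = 6.2e-07 in KO, 1.77 ± 0.23 SE, adjusted p = 6.5e-07 in WT, edgeR). Its LPS values were also spread widely, and the highest of them was WT LPS replicate 2. Pfkfb4, a second enzyme of that kind, was lower in both genotypes (-0.59 ± 0.13 SE in KO, -0.51 ± 0.13 in WT).

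Of the 9 genes from aldolase to pyruvate kinase, 7 were higher and 1 lower with LPS in KO, and 8 higher and 1 lower in WT, but total-count scaling turned the direction of 7 in KO and 4 in WT. Gapdh, the member with the highest TPM in every library, had 3990 ± 128 CPM in KO LPS against 2630 ± 37.8 CPM in KO control, and 4140 ± 442 CPM in WT LPS against 2410 ± 144 CPM in WT control (SD, n = 5 and 4). Its log2 fold changes were 0.6 ± 0.06 SE in KO and 0.78 ± 0.06 SE in WT, and total-count scaling turned the KO value to -0.18. Aldoa, the aldolase that splits the sugar, and Tpi1, which interconverts the products, were called higher in both genotypes (0.34 and 0.34 in KO, 0.63 and 0.63 in WT), while total-count scaling turned all 4 values, to -0.44 and -0.44 in KO and to -0.12 and -0.11 in WT. The Tpi1 call in KO was lost without KO LPS replicate 3 (0.21, edgeR adjusted p = 0.11) and without KO control replicate 1 (0.27, edgeR adjusted p = 0.093). Pgk1, which makes the first ATP of the pathway, was higher by 0.77 ± 0.06 SE in KO and 0.99 ± 0.06 SE in WT, and total-count scaling put the KO value at -0.01. Pgam1, the mutase after it, was higher by 0.62 ± 0.11 SE in KO, where total-count scaling gave -0.16, and by 0.84 ± 0.11 SE in WT. Pkm, the pyruvate kinase, was higher by 0.42 ± 0.05 SE in KO and 0.56 ± 0.05 SE in WT, and both values turned under total-count scaling, to -0.36 and -0.19. Eno1, the main enolase, was not called in KO (0.09 ± 0.07 SE, adjusted p = 0.22, edgeR) and was called higher in WT (0.41 ± 0.07 SE), and total-count scaling put it at -0.70 and -0.34. In KO it was called higher with RLE scaling (0.18, edgeR adjusted p = 0.022), with DESeq2 (0.18, adjusted p = 0.015), with only the groups compared (0.11, edgeR adjusted p = 0.034) and without the libraries numbered 5 and 7 (0.12, edgeR adjusted p = 0.025).

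Eno2 (gene ID 13807) had 9.22, 5.49, 6.57, 6.52 and 6.86 CPM in the KO LPS libraries, against 1.41, 1.21, 1.63 and 1.32 CPM in the KO control libraries. WT libraries held 4.39, 7.35, 5.05, 4.55 and 5.61 CPM of Eno2 with LPS, against 1.14, 1.29, 0.861 and 1.57 CPM in control. Eno2, an enolase best known from neurons, was a minor enolase by TPM, as its share below shows, and every LPS library lay above every control library (2.31 ± 0.19 SE, adjusted p = 3.8e-10 in KO, 2.14 ± 0.19 SE, adjusted p = 2.1e-09 in WT, edgeR). Aldoc, the brain-type aldolase, was lower with LPS in KO (-0.47 ± 0.08 SE, adjusted p = 1.1e-05, edgeR) and in WT (-0.21 ± 0.08 SE, adjusted p = 0.017, edgeR). The WT call for Aldoc was lost with RLE scaling (edgeR adjusted p = 0.084), with DESeq2 (adjusted p = 0.086), without WT control replicate 2 (edgeR adjusted p = 0.057) and without the 2 libraries rich in neutrophil markers (edgeR adjusted p = 0.063). Leaving those 2 libraries out was added after seeing the data, and it changed no other member call.

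**Figure D2:**
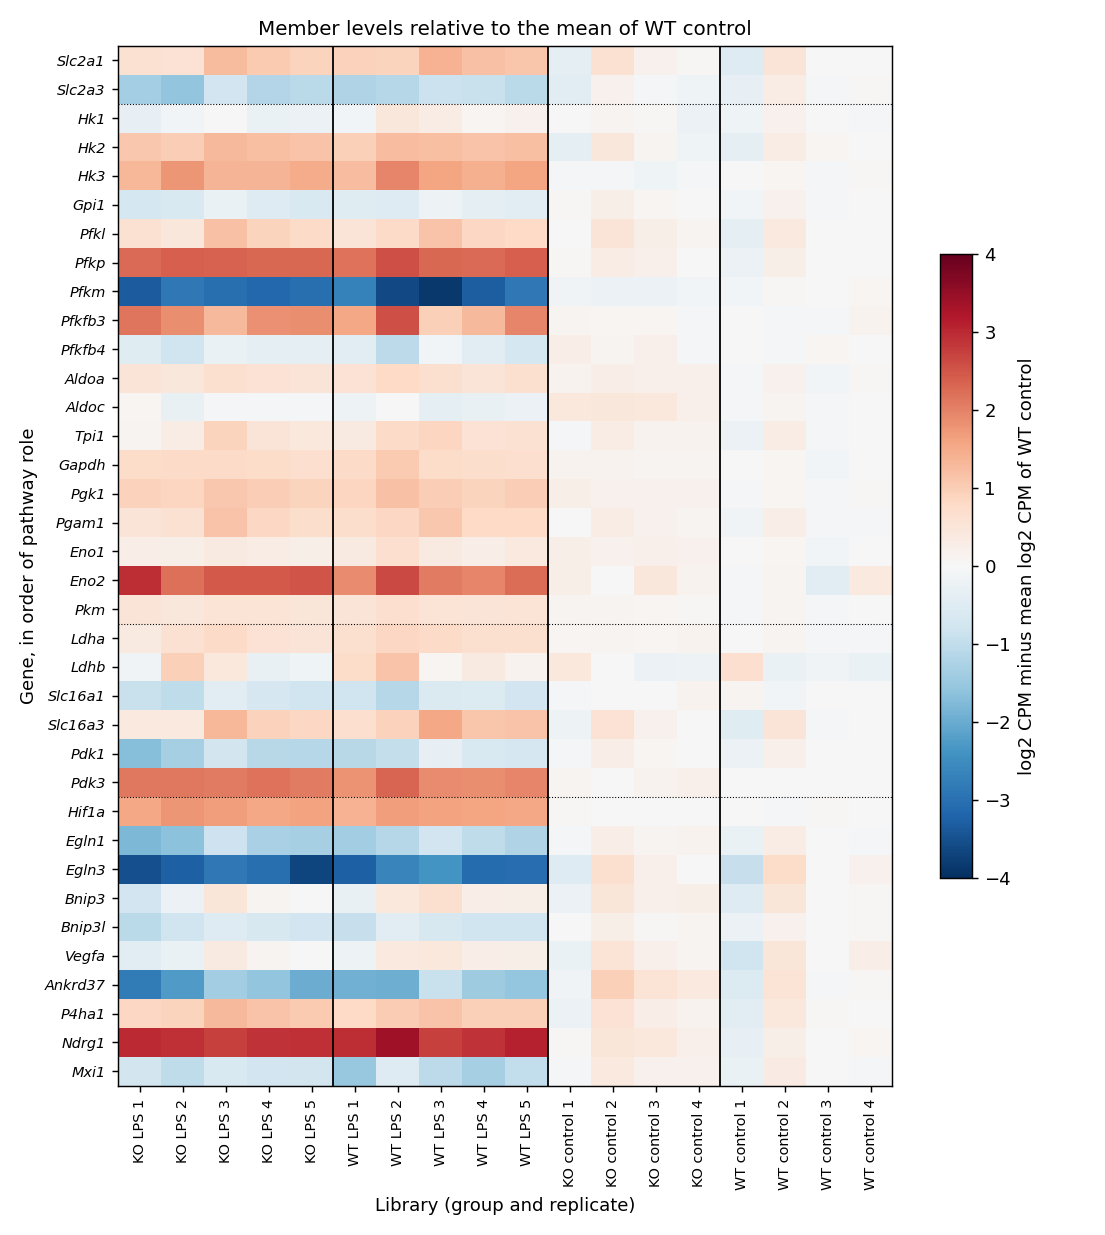
Log2 CPM of the 36 members (rows) in the 18 libraries (columns), each minus the mean of the WT control libraries. KO LPS and WT LPS columns stand beside each other and show the same members high (Ndrg1, Pfkp, Eno2) and low (Pfkm, Egln3), while the control columns lie near 0.

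At pyruvate, Ldha, the lactate dehydrogenase subunit that favours lactate, was called higher in KO (0.46 ± 0.07 SE) and WT (0.7 ± 0.07 SE), and total-count scaling turned both values, to -0.32 and -0.05. Ldhb, the other subunit, lay between 0.601 and 1.63 CPM in all 18 libraries and was not called. Its WT value was 0.48 ± 0.28 SE, adjusted p = 0.12 (edgeR), and without WT control replicate 1, which stood high, it was 0.77 with an edgeR adjusted p of 0.021. Slc16a3, the lactate exporter MCT4, was called higher in KO (0.65 ± 0.22 SE), where total-count scaling gave -0.13, and in WT (1.06 ± 0.22 SE). Slc16a1, the carrier MCT1, was lower in both (-0.78 ± 0.1 SE in KO, -0.75 ± 0.1 in WT). The pyruvate dehydrogenase kinases, which shut the entry of pyruvate into mitochondrial oxidation, moved apart.

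Pdk3 (gene ID 236900) had 125, 123, 121, 131 and 122 CPM in the KO LPS libraries, against 30.9, 29.3, 31.8 and 32.9 CPM in the KO control libraries. WT libraries held 101, 144, 106, 104 and 112 CPM of Pdk3 with LPS, against 28.8, 28.8, 29 and 28.6 CPM in control. Every LPS library lay above every control library for Pdk3 (1.99 ± 0.08 SE, adjusted p = 9.8e-15 in KO, 1.98 ± 0.08 SE, adjusted p = 1.3e-14 in WT, edgeR). Pdk1, a kinase known as a HIF-1 target, was lower, with 28.2 to 54.8 CPM in KO LPS against 85.7 to 109 CPM in KO control, and 42.2 to 73 CPM in WT LPS against 77.6 to 106 CPM in WT control. Its log2 fold changes were -1.24 ± 0.16 SE in KO and -0.72 ± 0.16 SE in WT.

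Among the regulators, Hif1a, the oxygen-regulated subunit of HIF-1, had 246 ± 15.5 CPM in KO LPS against 79.8 ± 1.71 CPM in KO control, and 236 ± 16.4 CPM in WT LPS against 79.7 ± 3.08 CPM in WT control (SD, n = 5 and 4). It was called higher in KO (1.62 ± 0.06 SE, adjusted p = 1e-15, edgeR) and WT (1.57 ± 0.06 SE, adjusted p = 2.1e-15, edgeR), and LPS and control libraries did not overlap. Of the prolyl hydroxylases that mark HIF alpha subunits, Egln1 and Egln3, which are HIF targets themselves, were lower. Egln2 (PHD1), which is no member and was added after its values were seen, had 63.3 ± 4.35 CPM in KO LPS against 38.9 ± 0.863 CPM in KO control, and 60.1 ± 3.44 CPM in WT LPS against 38.7 ± 2.3 CPM in WT control. It was called higher in KO (0.7 ± 0.06 SE, adjusted p = 6.7e-10, edgeR) and WT (0.63 ± 0.06 SE, adjusted p = 3.5e-09, edgeR), but total-count scaling turned it to -0.08 in KO, not called, and to -0.11 in WT, called lower (edgeR adjusted p = 0.14 and 0.043).

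Egln3 (gene ID 112407) had 1.89, 2.28, 3.01, 2.71 and 1.7 CPM in the KO LPS libraries, against 15.2, 34.2, 25.2 and 22.1 CPM in the KO control libraries. WT libraries held 2.28, 3.52, 4.14, 2.57 and 2.66 CPM of Egln3 with LPS, against 11.5, 36, 22.2 and 24.4 CPM in control. For Egln3 (PHD3), every LPS library lay below every control library (-3.38 ± 0.3 SE, adjusted p = 2.2e-09 in KO, -2.96 ± 0.29 SE, adjusted p = 8.9e-09 in WT, edgeR). Within each control group, replicate 1 was the lowest and replicate 2 the highest.

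Egln1 (gene ID 112405) had 29.5, 32.3, 57.7, 41.5 and 40.3 CPM in the KO LPS libraries, against 97.1, 123, 109 and 113 CPM in the KO control libraries. WT libraries held 38.8, 45.7, 59.4, 50.4 and 44.1 CPM of Egln1 with LPS, against 84.9, 126, 100 and 99.2 CPM in control. Egln1 (PHD2), the main oxygen sensor of the family, was lower (-1.46 ± 0.16 SE, adjusted p = 3.3e-08 in KO, -1.1 ± 0.15 SE, adjusted p = 1.6e-06 in WT, edgeR), and LPS libraries lay below control libraries throughout.

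Of the 7 other HIF-1 targets, 2 were higher, 3 lower and 2 not called in each genotype. Ndrg1 (gene ID 17988) had 318, 300, 265, 295 and 303 CPM in the KO LPS libraries, against 41, 56.3, 53.1 and 46.1 CPM in the KO control libraries. WT libraries held 308, 415, 268, 297 and 339 CPM of Ndrg1 with LPS, against 31.7, 47.4, 39.7 and 42.6 CPM in control. Ndrg1, a stress-responsive gene known to be induced by hypoxia, had the highest log2 fold change of the members in both genotypes (2.59 ± 0.13 SE, adjusted p = 2.3e-13 in KO, 3.01 ± 0.13 SE, adjusted p = 3.5e-14 in WT, edgeR), with no overlap between LPS and control.

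Ankrd37 (gene ID 654824) had 2.82, 4.11, 7.61, 6.62 and 5.01 CPM in the KO LPS libraries, against 18, 37.9, 28.8 and 25.9 CPM in the KO control libraries. WT libraries held 5.2, 5.11, 10.6, 7.29 and 6.75 CPM of Ankrd37 with LPS, against 13.4, 29.1, 19.1 and 20.4 CPM in control. Ankrd37, an ankyrin-repeat protein known as a direct HIF-1 target, was lower (-2.4 ± 0.27 SE, adjusted p = 8.2e-08 in KO, -1.55 ± 0.26 SE, adjusted p = 2e-05 in WT, edgeR), again with no overlap.

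Mxi1 (gene ID 17859) had 29.4, 24.2, 32.6, 29.2 and 29.5 CPM in the KO LPS libraries, against 48, 64.1, 55.5 and 55.7 CPM in the KO control libraries. WT libraries held 17.4, 34.7, 23.8, 19.6 and 24.8 CPM of Mxi1 with LPS, against 40.9, 61.7, 48.9 and 47.7 CPM in control. Mxi1, a partner of MAX that counters MYC, was lower in KO (-0.95 ± 0.15 SE, adjusted p = 7.7e-06, edgeR) and in WT (-1.05 ± 0.15 SE, adjusted p = 2.3e-06, edgeR), and its highest LPS value, in WT LPS replicate 2, stayed below its lowest control value.

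P4ha1, a subunit of the collagen prolyl hydroxylase, was called higher in KO (0.84 ± 0.15 SE) and WT (0.95 ± 0.15 SE). Total-count scaling put it at 0.06 and 0.21, neither of them called (edgeR adjusted p = 0.72 and 0.21). Bnip3l, a receptor for the removal of mitochondria, was lower in both (-0.85 ± 0.1 SE in KO, -0.72 ± 0.1 in WT). Its relative Bnip3 was not called (-0.22 ± 0.22 SE, adjusted p = 0.35 in KO, 0.24 ± 0.22 SE, adjusted p = 0.32 in WT, edgeR). In WT, where same-numbered runs of libraries deviated together, a fit with these runs as a block called Bnip3 higher (0.24, edgeR adjusted p = 0.0073), while total-count scaling without the block called it lower in KO (-1, adjusted p = 3e-04) and WT (-0.51, adjusted p = 0.037). Vegfa, the vascular growth factor, was not called either (-0.19 ± 0.21 SE, adjusted p = 0.41 in KO, 0.16 ± 0.21 SE, adjusted p = 0.48 in WT, edgeR), and total-count scaling called it lower in both (-0.97, adjusted p = 0.00025 in KO, -0.59, adjusted p = 0.013 in WT).

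Levels per transcript length (TPM) show how the isoforms made up each family. These shares do not depend on the scaling between libraries, and are given as means ± SD with no test. Pfkp made up 83 ± 2.77% of the summed TPM of the 3 phosphofructokinase genes in KO LPS and 82.9 ± 2.62% in WT LPS, against 60.1 ± 1.27% in KO control and 61.1 ± 1.68% in WT control. Pfkm held 0.0928 ± 0.00992% in KO LPS and 0.085 ± 0.035% in WT LPS, against 2.27 ± 0.334% in KO control and 2.85 ± 0.341% in WT control. The family as a whole summed to 561 ± 35.3 TPM in KO LPS and 590 ± 57.9 TPM in WT LPS, against 268 ± 33.5 TPM in KO control and 264 ± 43 TPM in WT control, so the gain lay mainly in Pfkp. Of Pdk1 and Pdk3 together, Pdk3 made up 88.5 ± 2.58% in KO LPS and 83.4 ± 3.83% in WT LPS, against 42.1 ± 3.78% in KO control and 41.2 ± 3.2% in WT control. The more abundant kinase of the pair was thus Pdk1 in control and Pdk3 with LPS.

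**Figure D3:**
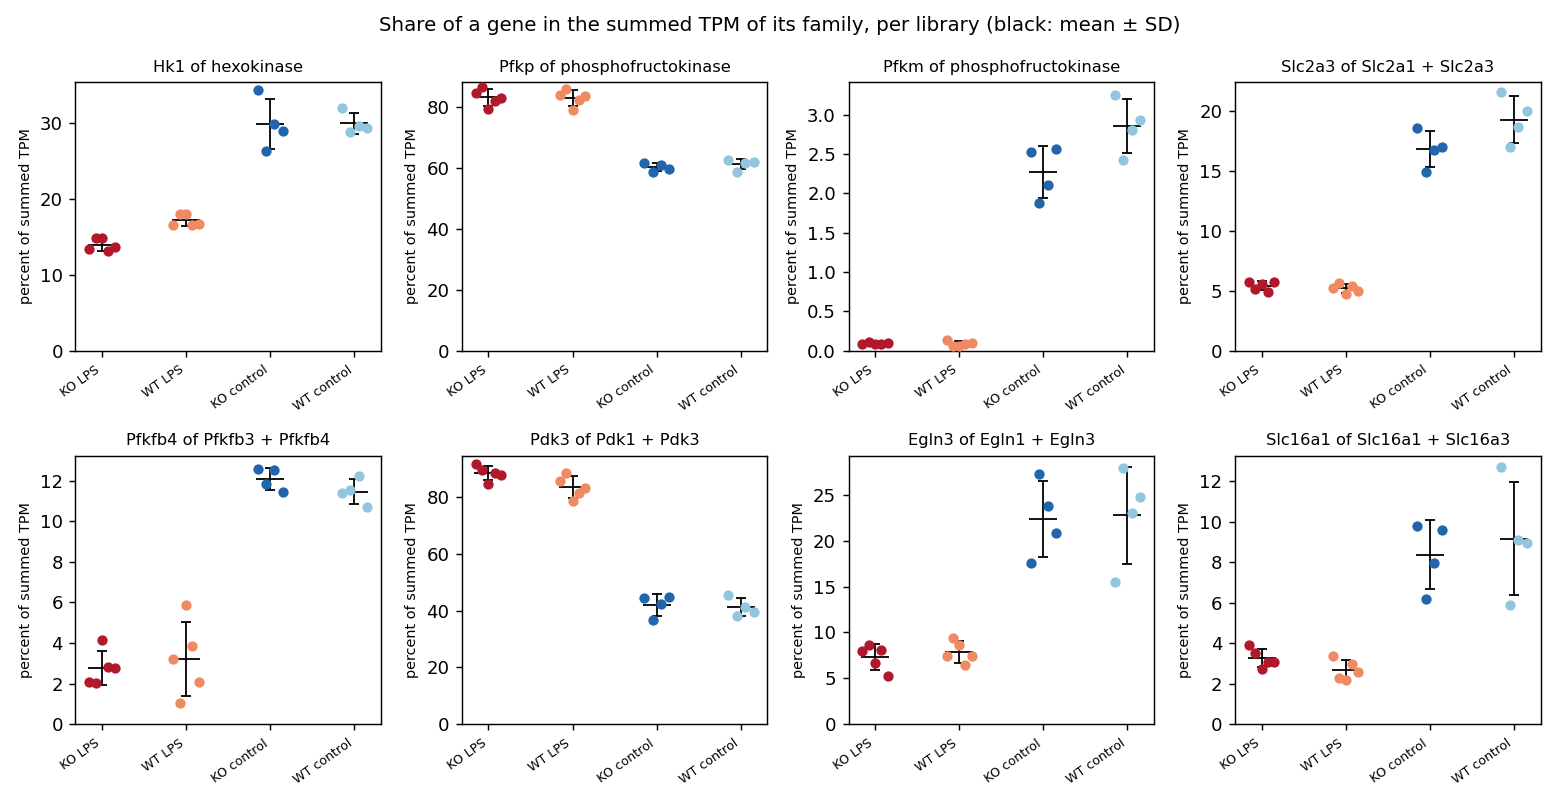
Share of the summed TPM of its family held by 8 members, per library (points) with mean ± SD, in KO LPS, WT LPS, KO control and WT control. Pfkp and Pdk3 hold more of their family with LPS, Pfkm, Slc2a3, Pfkfb4, Egln3, Slc16a1 and Hk1 hold less, and Hk1 in KO LPS lies below WT LPS.

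Slc2a3, Pfkfb4, Slc16a1 and Egln3 each held a smaller share of their pair with LPS. Slc2a3 held 5.39 ± 0.384% of the Slc2a1 and Slc2a3 sum in KO LPS and 5.18 ± 0.358% in WT LPS, against 16.8 ± 1.51% in KO control and 19.2 ± 1.95% in WT control. Pfkfb4 held 2.76 ± 0.85% of the sum with Pfkfb3 in KO LPS and 3.22 ± 1.84% in WT LPS, against 12.1 ± 0.538% in KO control and 11.5 ± 0.637% in WT control. Slc16a1 held 3.27 ± 0.46% of the sum with Slc16a3 in KO LPS and 2.67 ± 0.504% in WT LPS, against 8.37 ± 1.69% in KO control and 9.15 ± 2.79% in WT control. Egln3 held 7.32 ± 1.39% of the sum with Egln1 in KO LPS and 7.88 ± 1.17% in WT LPS, against 22.3 ± 4.12% in KO control and 22.8 ± 5.29% in WT control. That sum itself was 16.1 ± 4.52 TPM in KO LPS and 19.9 ± 4.14 TPM in WT LPS, against 83.4 ± 12.3 TPM in KO control and 85.3 ± 19.1 TPM in WT control. Ldha made up 99.9% of the lactate dehydrogenase sum in all 4 groups. Eno2 held 0.388 ± 0.0763% of its sum with Eno1 in KO LPS and 0.27 ± 0.0274% in WT LPS, against 0.0803 ± 0.00865% in KO control and 0.0794 ± 0.0173% in WT control.

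The 16 enzyme genes from glucose to pyruvate summed to 11200 ± 690 TPM in KO LPS, 12100 ± 716 TPM in WT LPS, 12500 ± 521 TPM in KO control and 12300 ± 701 TPM in WT control, and Gapdh alone made up 37.9%, 37.3%, 35.1% and 35.5% of that sum. The means of WT LPS and WT control lay within 1 SD of each other, while those of KO LPS and KO control differed by more than 1 SD. TPM sums to the same total in every library and is not rescaled by TMM, so this sum is comparable with the total-count values above, not with the TMM values.

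Between genotypes, few members passed the test. With LPS, KO against WT called 1 member, Hk1, lower, and none higher, where 5.5% of all tested genes were lower and 5.3% higher (10.8% in either direction). At an unadjusted p under 0.05, 5 of 36 members differed, where 26.2% of all tested genes did, and DESeq2 called 2, where it called 14.3% of all tested genes. The median member log2 fold change was -0.08, against -0.02 over all tested genes. In the same comparison, 4 of 9 type 1 dendritic cell markers were lower in KO, among them Xcr1 (-0.61 ± 0.06 SE), on which the cells were selected, and 1 was higher. The part of this in the member values was not tested. Hk1 had 56.5, 65.8, 71.9, 59.6 and 61 CPM in KO LPS, against 65.8, 97.4, 88.8, 75.2 and 80.1 CPM in WT LPS. The groups overlapped only in that KO LPS replicates 2 and 3 reached the level of the lowest WT library, and the log2 fold change was -0.37 ± 0.1 SE, adjusted p = 0.017 (edgeR). KO was lower than WT in each of the 5 runs of library numbers, with differences of -0.22 to -0.57. The call was lost when only the groups compared were fitted (-0.38, edgeR adjusted p = 0.054), without KO LPS replicate 1 (-0.33, edgeR adjusted p = 0.059) and without WT LPS replicate 3 (-0.34, edgeR adjusted p = 0.051). In control, Hk1 had 70, 77.2, 74 and 60.8 CPM in KO, against 63.8, 81.1, 72.6 and 69.7 CPM in WT, with overlapping groups (-0.03 ± 0.11 SE, adjusted p = 0.96, edgeR). As a share of the 3 hexokinases by TPM, Hk1 was 13.9 ± 0.836% in KO LPS (range 13.1% to 14.9%) and 17.1 ± 0.804% in WT LPS (range 16.5% to 18.1%), so the LPS groups did not overlap on this measure. In control it was 29.9 ± 3.33% in KO and 29.9 ± 1.39% in WT.

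Pdk1 came next. It had 28.2, 36.1, 54.8, 42 and 41.4 CPM in KO LPS, against 42.2, 46.9, 73, 59.5 and 56.9 CPM in WT LPS, and the groups overlapped. The difference was -0.46 ± 0.15 SE, adjusted p = 0.057 (edgeR), not past the threshold, whereas DESeq2 gave an adjusted p of 0.035. KO was below WT in each of the 5 runs, with differences of -0.38 to -0.58. Leaving out KO LPS replicate 3, WT LPS replicate 1 or WT LPS replicate 2 brought edgeR calls (-0.59, -0.55 and -0.52, adjusted p = 0.013, 0.031 and 0.015). The other members with an unadjusted p under 0.05 were Eno2 (0.37 ± 0.16 SE, adjusted p = 0.14), Eno1 (-0.13 ± 0.06 SE, adjusted p = 0.18) and Ldha (-0.13 ± 0.06 SE, adjusted p = 0.18), none of them past the edgeR threshold.

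The count depended on WT LPS replicate 2. Without it, 6 members were called and 3344 of all genes, against 1 and 1294 with it. Aldoc (0.18, adjusted p = 0.041), Eno2 (0.50, 0.013), Pdk3 (0.23, 0.00046) and Mxi1 (0.44, 0.012) were then higher in KO, and Hk1 and Pdk1 lower (edgeR). Without that library and KO LPS replicate 2, the pair of libraries in that run, 6 members and 3238 of all genes were called. This alternative was added after seeing the data. Total-count scaling also called 6 members, all lower in KO, namely Hk1, Aldoa, Eno1, Pkm, Ldha and Pdk1. It called 1192 of all tested genes lower and 356 higher. Of all called genes, 49.1% were higher in KO under TMM, 58.6% under RLE and 23% under total-count scaling.

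**Figure D4:**
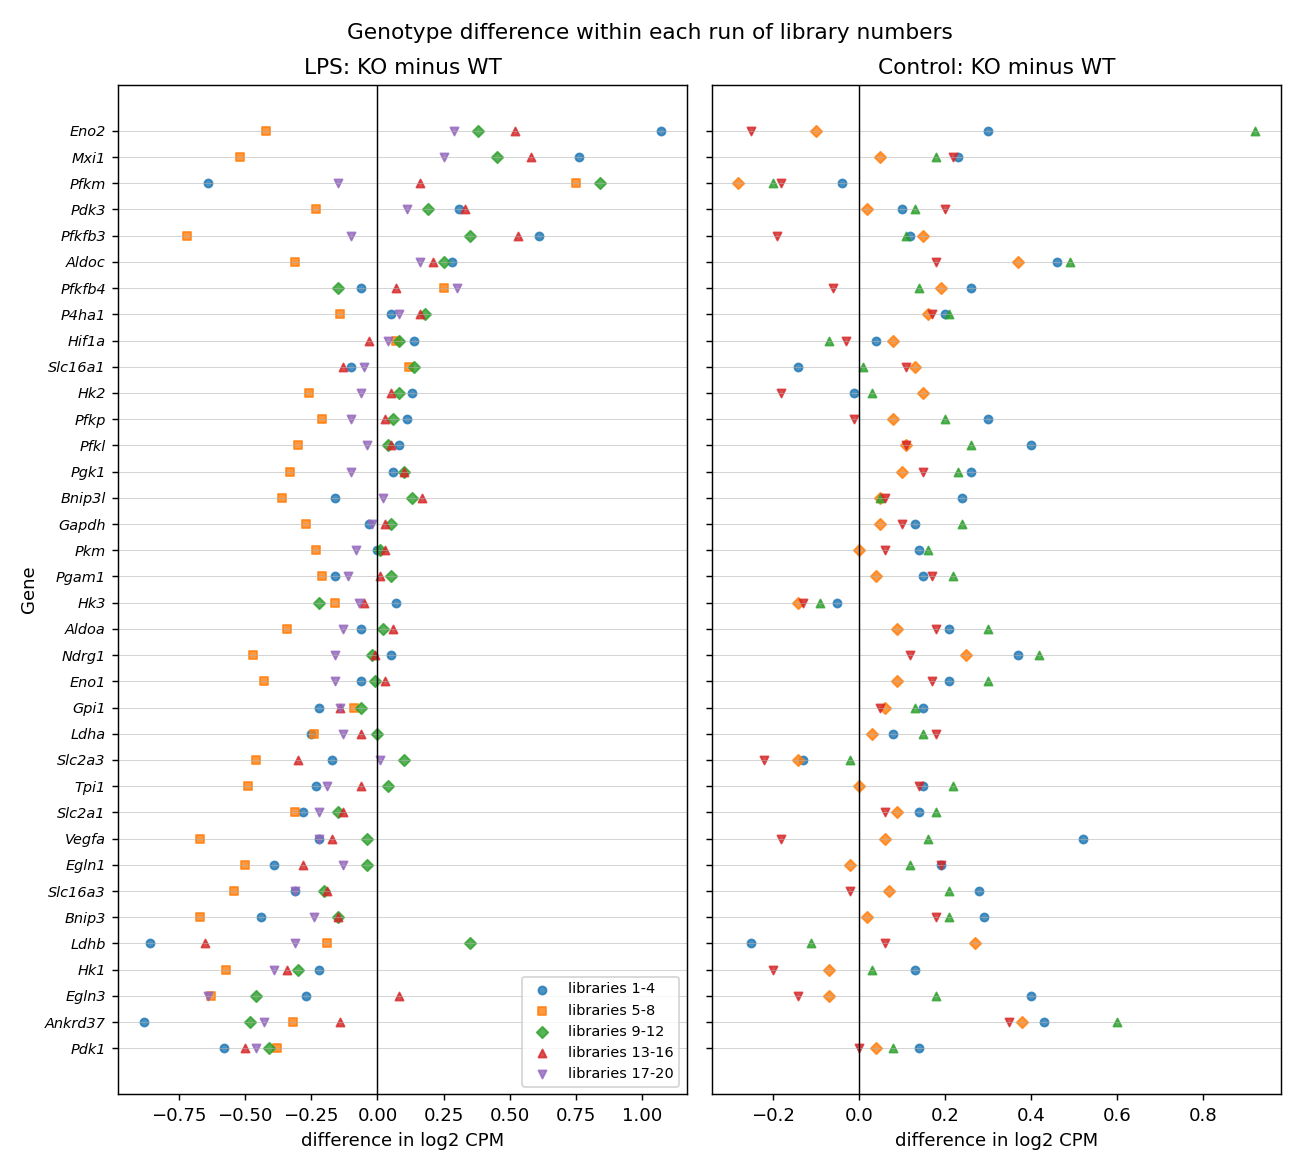
KO minus WT log2 CPM of each member (rows) within each run of consecutive library numbers (marker shapes), with LPS (left, 5 runs) and in control (right, 4 runs). The vertical line marks 0, and medians over the 36 members are not drawn. With LPS the median is lowest, at -0.31, in the run that holds WT LPS replicate 2, and in control all 4 medians lie above 0.

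Within runs of library numbers, the median KO minus WT difference over the members with LPS was -0.08, -0.31, 0.04, 0.02 and -0.11 in the 5 runs, so 3 runs lay below 0 and 2 above. KO was below WT in all 5 runs for 9 of 36 members (25%), where 9.77% of all tested genes were, and above in all 5 runs for none, where 10.3% of all tested genes were. The 9 were Slc2a1, Hk1, Gpi1, Slc16a3, Pdk1, Bnip3, Egln1, Vegfa and Ankrd37. Apart from Hk1, none of the 9 was called in the test across all libraries. That test set no block for the runs, and calls with such a block are given in the closing section. Total-count scaling put 24 members below in all 5 runs, against 14.1% of all tested genes.

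In control libraries, KO against WT called 1 member, Aldoc, higher, and none lower, where 1.89% of all tested genes were higher and 0.525% lower (2.41% in either direction). The median member log2 fold change was 0.12, against 0.02 over all tested genes, and 5 of 36 members had an unadjusted p under 0.05, where 13.9% of all tested genes did. Of the 9 type 1 dendritic cell markers, Xcr1 alone was called here, and was lower in KO (-0.68 ± 0.07 SE). Aldoc had 122, 126, 122 and 105 CPM in KO control, against 88.6, 97.5, 86.8 and 92.7 CPM in WT control. The groups did not overlap, and the log2 fold change was 0.38 ± 0.08 SE, adjusted p = 0.014 (edgeR). The call was lost without KO control replicate 2 (0.35, edgeR adjusted p = 0.059), without WT control replicate 1 (0.36, 0.05) and without WT control replicate 3 (0.35, 0.074). With LPS, Aldoc had 96.1, 75, 85.7, 86.3 and 85.8 CPM in KO and 79, 93.3, 71.9, 74.5 and 77 CPM in WT, where WT LPS replicate 2 was the highest of its group (0.12 ± 0.07 SE, adjusted p = 0.33, edgeR).

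The other 4 members with an unadjusted p under 0.05 in control were also higher in KO without passing the edgeR threshold. They were Aldoa (0.19 ± 0.07 SE, adjusted p = 0.17), Pgk1 (0.18 ± 0.06 SE, adjusted p = 0.17), Eno1 (0.19 ± 0.07 SE, adjusted p = 0.19) and Ndrg1 (0.28 ± 0.13 SE, adjusted p = 0.33). When only the control groups were fitted, Pgk1 (0.17, edgeR adjusted p = 0.034) and Eno1 (0.17, 0.038) were called, which gave 3 members in all. Of all genes, 895 were called in that fit. Leaving WT LPS replicate 2 out of the fit to all groups also gave 3 members, with 751 of all genes called. The run medians of KO minus WT were 0.17, 0.06, 0.17 and 0.06. KO lay above WT in all 4 runs for 19 of 36 members (52.8%), against 19.1% of all tested genes, and below for 3, Slc2a3, Hk3 and Pfkm (8.33%), against 11.5%. Under total-count scaling these counts were 13 above, against 12.1% of all tested genes, and 3 below, against 20%.

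The interaction asks whether the response to LPS differed between KO and WT, as the KO log2 fold change minus the WT one. It called no member in edgeR or DESeq2, where 1.03% of all tested genes were called above 0 and 2.79% below (3.82% in all) in edgeR and 6.78% in DESeq2. In edgeR, 10 of 36 members had an unadjusted p under 0.05, all of them below 0, where 11.9% of all tested genes were below 0 and 6.77% above at that p. The lowest adjusted values were for Eno1 (-0.32 ± 0.09 SE, adjusted p = 0.057) and Aldoa (-0.28 ± 0.09 SE, adjusted p = 0.085), and the lowest difference among the 10 was Ankrd37, at -0.85 ± 0.38 SE, adjusted p = 0.24 (edgeR). The others were Hk1, Aldoc, Pgk1, Pkm, Ldha, Pdk1 and Ndrg1, with differences between -0.14 and -0.52. The median member difference was -0.22, against -0.05 over all tested genes. Total-count scaling called Aldoa (-0.32) and Eno1 (-0.35), where it called 416 of all tested genes below 0 and 97 above. Of all called genes, 27.1% were above 0 under TMM, 42.9% under RLE and 18.9% under total-count scaling. Leaving out WT LPS replicate 2 or WT LPS replicate 4 brought a call of Eno1 (-0.25 and -0.35), and leaving out WT control replicate 2 a call of Aldoa (-0.34). Within runs, the difference was below 0 in all 4 runs for 18 of 36 members (50%), against 25.1% of all tested genes, and above 0 in all 4 for Pfkfb3, Hif1a and Mxi1 (8.33%), against 17.4%. Under total-count scaling these counts were 24 below, against 34.4% of all tested genes, and 1 above, against 11.4%. The genotype comparisons above use the same libraries as the interaction, and none of these main fits set a block for the runs.

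Apart from the groups, many members varied together from library to library. In all 4 groups, replicates from the run numbered 1 to 4 were low by the member median and those from the run numbered 9 to 12 high. This pair of runs was singled out after seeing the data. Some members went the other way: in KO LPS and WT LPS, Pfkfb3 (376 and 295 CPM) and Ndrg1 (265 and 268 CPM) were lowest in the run numbered 9 to 12. The median deviation of the members from their group mean in the run numbered 1 to 4 was -0.16 in KO LPS, -0.17 in WT LPS, -0.09 in KO control and -0.16 in WT control on the log2 scale. In the run numbered 9 to 12 it was 0.20, 0.06, 0.13 and 0.18, in the same order. In WT LPS the highest median, 0.16, belonged to replicate 2 instead. Of the 36 members, 26 in KO LPS, 15 in WT LPS, 24 in KO control and 28 in WT control were highest in the run numbered 9 to 12, which is 72.2%, 41.7%, 66.7% and 77.8%, against 23.2%, 23%, 23.8% and 27.6% of all tested genes. The members lowest in the run numbered 1 to 4 were 17, 22, 20 and 21, or 47.2%, 61.1%, 55.6% and 58.3%, against 22.9%, 21.4%, 23.2% and 29.8% of all tested genes.

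**Figure D5:**
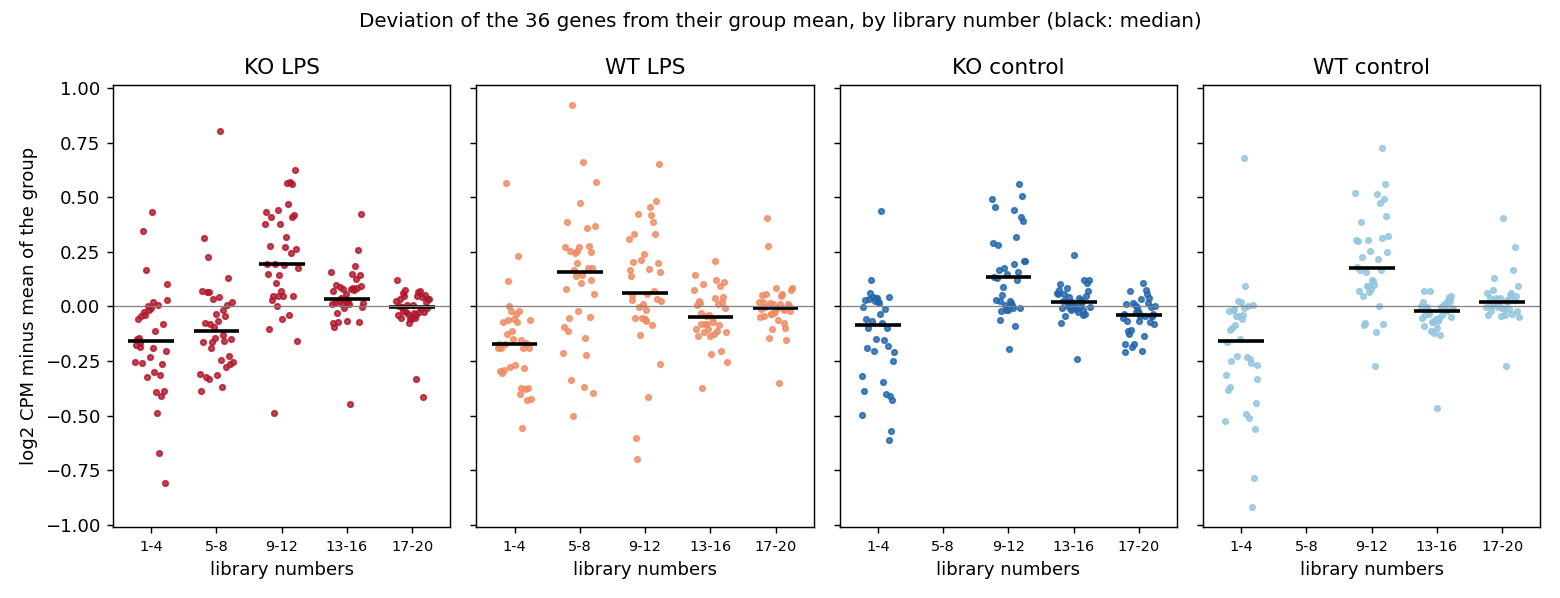
Deviation of each member (points) from the mean log2 CPM of its group, by run of library numbers, with a panel for each group and black bars for medians over the 36 members. The median of the run numbered 1 to 4 lies below 0 in every panel, and that of the run numbered 9 to 12 above 0. Single members lie on the other side, such as Pfkfb3 in KO LPS.

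Averaged over the groups, the SD of log2 CPM was highest for Ankrd37 and Egln3, followed by Ldhb, Bnip3, Vegfa, Slc16a3 and Slc2a1. As an example, the SD within KO LPS and WT control was 0.569 and 0.457 for Ankrd37, 0.458 and 0.406 for Bnip3, and 0.401 and 0.413 for Slc16a3. Pkm and Hif1a were steadier, with 0.0463 and 0.0795 for Pkm and 0.0898 and 0.0567 for Hif1a. In the genotype comparisons the SE of Ankrd37, Egln3, Bnip3, Vegfa, Slc16a3 and Slc2a1 was 0.18 to 0.36, against 0.05 to 0.06 for Pkm and Hif1a.

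Neighbouring pathways were read from lists of their known genes, by how many of the tested ones were called. As 40% of all tested genes were called higher and 46.2% lower with LPS in KO, and 40.7% higher and 44.7% lower in WT, the counts below are to be read against these shares, and nothing particular to a list is read from them. Of 8 tested genes among the other glycolytic isoforms and glucose carriers, 2 were higher and 5 lower with LPS in KO, and 2 higher and 3 lower in WT. Slc2a6, a lysosomal glucose carrier, was the highest in WT (3.86 ± 0.1 SE), followed by Tigar, a phosphatase that opposes Pfkfb3 (1.24 ± 0.09 SE), and Pfkfb1 was not called (-0.03 ± 0.19 SE, adjusted p = 0.9, edgeR). The lowest were Slc2a8 (-3.36 ± 0.17 SE), Bpgm, the bisphosphoglycerate mutase (-2.24 ± 0.14 SE), and Pfkfb2 (-1.5 ± 0.1 SE). Of 10 tested HIF regulators beyond the members, 7 were higher and 1 lower in each genotype. Eloc (1.44), Cul2 (1.31) and Rbx1 (0.84), which build the VHL ubiquitin ligase, were the highest in WT, but Rbx1 lost its call under total-count scaling (0.09). Hif3a was the lowest in WT (-4.18 ± 0.47 SE), while Epas1 (-0.31 ± 0.2 SE, adjusted p = 0.16) and Vhl (-0.02 ± 0.05 SE, adjusted p = 0.69) were not called by edgeR. Total-count scaling called Pfkfb1, Epas1 and Vhl lower (-0.77, -1.06 and -0.76), and Epas1 was also called lower without WT LPS replicate 2 (-0.47, edgeR adjusted p = 0.032) and with the runs of library numbers as a block (-0.50, edgeR adjusted p = 0.0037).

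Of 22 tested HIF targets beyond the members, 12 were higher and 5 lower with LPS in KO, and 13 higher and 4 lower in WT. Edn1, the vasoconstrictor endothelin, had no count in any control library and averaged 1.36 CPM in KO LPS and 1.44 CPM in WT LPS. Against a floor of 3 counts over the control group, that is at least 64.8-fold higher in KO and at least 69.8-fold higher in WT. Adm, adrenomedullin, was higher in WT by 3.98 ± 0.47 SE. Angptl4 (-3.04 ± 0.49 SE), Car9, a carbonic anhydrase widely used as a hypoxia marker (-2.24 ± 0.17 SE), and Tfrc, the transferrin receptor (-1.79 ± 0.11 SE), were the lowest. Of 11 tested genes of pyruvate entry, 5 were higher and 5 lower in each genotype. Mpc1, a mitochondrial pyruvate carrier (1.26 ± 0.1 SE), Pdp2 (1.19 ± 0.07 SE) and Pdha1 (0.87 ± 0.06 SE) were the highest in WT, and Pdk2 (-3.69 ± 0.29 SE), Pdpr (-1.39 ± 0.08 SE) and Pdp1 (-1.04 ± 0.1 SE) the lowest.

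All 9 genes of the pentose phosphate pathway, the route that yields NADPH, were called with LPS in both genotypes, 5 higher and 4 lower, where 86.2% of all tested genes in KO and 85.5% in WT were called. Pgd (1.81 ± 0.05 SE in WT), Rpe (1.6) and Taldo1 (1.01) were the highest, and Shpk (-3.09), a kinase that restrains the pathway, H6pd (-1.69) and Rpia (-0.72) the lowest. Of 8 tested glycogen genes, 3 were higher and 4 lower in KO, and 3 higher and 3 lower in WT. Pgm1 (0.84), Ugp2 (0.79) and Gbe1 (0.53) were the highest in WT, but under total-count scaling the first and second lost their calls (0.10 and 0.04) and Gbe1 turned to -0.22. Gys1 (-1.29) and Pygb (-0.93) were among the lowest.

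Between genotypes, 4 genes of these lists were called, where the lists hold 8, 10, 22, 11, 9 and 8 tested genes. Of all tested genes, 10.8% were called in KO LPS against WT LPS, 2.41% in control and 3.82% in the interaction. Nothing particular to the lists is read from these calls. Adpgk, an ADP-dependent glucokinase, had 19.6 ± 1.8 CPM in KO LPS and 29.4 ± 4.36 CPM in WT LPS, and 35.7 ± 2.33 CPM in KO control and 33.3 ± 1.38 CPM in WT control (SD). It was lower in KO with LPS (-0.59 ± 0.09 SE, adjusted p = 0.00014, edgeR), and the interaction was also below 0 (-0.69 ± 0.12 SE, adjusted p = 0.0034, edgeR). Taldo1, transaldolase, had 499 ± 17.2 CPM in KO LPS and 586 ± 23.2 CPM in WT LPS, and 304 ± 14.3 CPM in KO control and 290 ± 10.8 CPM in WT control. It was lower in KO with LPS (-0.23 ± 0.04 SE, adjusted p = 0.0017, edgeR), with an interaction of -0.3 ± 0.07 SE, adjusted p = 0.016 (edgeR), which was lost without the 2 libraries rich in neutrophil markers (-0.29, edgeR adjusted p = 0.059). Pygb, a glycogen phosphorylase, was lower in KO with LPS (-0.25 ± 0.05 SE, adjusted p = 0.004, edgeR), at 42.8 ± 1.95 CPM against 50.8 ± 3.32 CPM in WT. Eno3, an enolase best known from muscle, was higher in KO control, at 46.4 ± 1.79 CPM against 34.1 ± 0.947 CPM in WT control (0.45 ± 0.09 SE, adjusted p = 0.0076, edgeR). These 4 calls between genotypes held under total-count scaling.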

How the data were processed

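RNA was measured in 18 samples in 4 groups taken from the labels. Per the labels' protocols, total RNA was sequenced on the DNBSEQ platform as 150-base pairs, and the submitters' processing notes name Bowtie2, HISAT and build GRCm39. No source used here gives their versions, the program that counted reads or the annotation. The authors deposited estimated counts without normalization, of which 6.37% are not whole at a tolerance of 0.001, and TPM values, which are set per transcript length and have a fixed sum per library. The deposited FPKM values were not used.

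Estimated counts were rounded and fitted with edgeR 4.0.16 (R 4.3.3) by the quasi-likelihood test, with all 18 libraries, a mean per group, filterByExpr (minimum count 10, minimum total 15) and TMM factors, and p-values were adjusted by Benjamini-Hochberg over 11989 genes at 0.05. SE is the log2 fold change over the root of its F value. The biological coefficient of variation was 0.0934. CPM values were scaled by TMM. Log2 CPM used a prior count of 2 for the printed deviations from group means and their correlations. Figures, differences within runs and SDs used no prior, and counts by run over all tested genes used a small offset. TPM gave levels per length. Alternatives were RLE and total-count scaling, no filter, DESeq2 1.42.0, only the groups compared, replicate blocks and each library left out. The test of KO LPS against WT LPS was also checked on simulated data. These held changed genes in KO LPS alone, so the check does not bear on LPS against control or on the scaling. Leaving out the libraries numbered 5 and 7, or 17 and 18, was added after seeing the data, as was the grouping into runs of library numbers. Members and lists were chosen with earlier results of these data known. Members named with a value for every library are those called between genotypes or in the interaction, and the 5 highest and 5 lowest with LPS in WT that reach 5 CPM in a group mean. Some genes of the neighbouring pathways are counted but not reported by name here. All 36 member IDs were found in the RefSeq table of GRCm38.p6, which gave promoter letters only. Library numbers paired WT LPS with WT control, with correlations of deviations of 0.14 to 0.273 in 4 of 4 pairs, and no other comparison met that rule.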

Additional observations from a re-analysis of the deposited data

Results flagged for a closer look

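Of 144 groups of member values, 5 held a library far from the others by Dixon's criterion, which chance alone gives in about 1 in 20 groups. WT LPS replicate 2 was the highest of WT LPS by such a gap for 4 members. Gapdh had 4920 CPM there, against 4070 CPM in the next library. Eno1 had 1470 CPM there and 1200 CPM in the next library, Pkm 2450 and 2260 CPM, and Pdk3 144 and 112 CPM. Ldhb had 1.17 CPM in WT control replicate 1, against 0.667 CPM in the next library of that group. Outside the members, the response of Adpgk to LPS differed between genotypes by the interaction test (-0.69 on the log2 scale), as did that of Taldo1 (-0.30).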

How the results depend on the processing

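In the 2 comparisons of LPS with control, the number of members called in either direction stayed within 1.5 times under all alternatives run. By direction it did not: total-count scaling gave 8 higher and 21 lower in KO, against 19 and 12, and 9 higher and 17 lower in WT, against 20 and 12. TMM factors were 0.743 to 0.85 in LPS libraries and 1.32 to 1.37 in control libraries. Leaving them out, as total-count scaling does, shifted all values of these 2 comparisons down. Total-count scaling turned in KO Slc2a1 (-0.04), Pfkl (-0.21), Aldoa (-0.44), Tpi1 (-0.44), Gapdh (-0.18), Pgk1 (-0.01), Pgam1 (-0.16), Eno1 (-0.70), Pkm (-0.36), Ldha (-0.32) and Slc16a3 (-0.13), and in WT Hk1 (-0.57), Aldoa (-0.12), Tpi1 (-0.11), Eno1 (-0.34), Pkm (-0.19), Ldha (-0.05), Bnip3 (-0.51), Vegfa (-0.59) and, outside the members, Gbe1 (-0.22) and Egln2 (-0.11, and -0.08 in KO). The causes of the other changes were not tested.

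In KO LPS against WT LPS, members called were 6 under total-count scaling, 2 with DESeq2, 0 with only the groups compared, 2 with the title number as replicate block, 8 with the library-number block and 6 without the libraries numbered 5 and 7, against 1. Leaving out a library gave 0 (KO LPS replicate 1 or WT LPS replicate 3), 2 (KO LPS replicate 3 or WT LPS replicate 1), 6 (WT LPS replicate 2) or 1. Over all genes, the 1294 calls became 619 with only the groups compared, 805 without KO LPS replicate 1, 3344 without WT LPS replicate 2 and 3238 without the libraries numbered 5 and 7. Under the other alternatives, both replicate blocks among them, the count over all genes stayed within 1.5 times of 1294. The 8 with the library-number block were Slc2a1, Hk1, Gpi1, Slc16a3, Pdk1, Bnip3, Egln1 and Ankrd37, all lower in KO.

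In KO control against WT control, members called were 3 with only the groups compared, 3 with the library-number block and 2 without the libraries numbered 5 and 7, against 1. Leaving out a library gave 0 (KO control replicate 2, WT control replicate 1 or 3), 3 (WT LPS replicate 2) or 1. Over all genes, the 289 calls became 494 with DESeq2, 895 with only the groups compared, 614 with the library-number block, 822 without the libraries numbered 5 and 7 and 191 without those numbered 17 and 18. They became 158 and 171 without KO control replicates 2 and 3, 175 and 114 without WT control replicates 1 and 3, and 751 without WT LPS replicate 2.

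For the interaction, members called were 2 under total-count scaling, 11 with the library-number block and 1 without the libraries numbered 5 and 7, against 0. The 11 were Slc2a1, Hk1, Gpi1, Aldoa, Eno1, Ldha, Slc16a3, Pdk1, Bnip3, Egln1 and Ankrd37, all below 0. Leaving out a library gave 1 (WT LPS replicate 2 or 4, or WT control replicate 2) or 0. Over all genes, the 458 calls became 813 with DESeq2, 882 with the library-number block, 1591 without the libraries numbered 5 and 7 and 206 without those numbered 17 and 18. They became 287, 298 and 279 without KO LPS replicates 1, 4 and 5, 1501 without WT LPS replicate 2, 281 and 305 without KO control replicates 3 and 4, and 208 and 304 without WT control replicates 3 and 4.

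Title numbers did not pair the samples: 3 of 9 pairs between genotypes and 3 of 8 between treatments had deviations that correlated above 0.1, with ranges of 0.009 to 0.353 and -0.221 to 0.273. Runs of library numbers did so in 6 of 8 pairs between treatments (-0.031 to 0.273). In WT LPS against WT control, where they pair the samples, the block changed no member call but that of Bnip3. In KO LPS against KO control, the library-number block called Hk1 (-0.21) and Bnip3 (-0.25) lower (edgeR adjusted p = 0.0071 and 0.0062), and the title-number block Hk1 (-0.16, 0.039). Depth limits Pfkm with LPS, Ldhb and Eno2, which lay near or below a few CPM.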
